A study of Mus musculus with 7 samples.

Results

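Slpi, Lcn2, S100a8, S100a9, Sprr1a, Tgm1, Gjb2, Gjb6 and Fabp5 are genes that a stressed or inflamed skin epithelium is known to switch on. They were taken by symbol from the deposited table, which lists 25322 genes, and all 9 were found. RNA of sorted tdTomato-positive cells of mouse skin (tdTomato is a red fluorescent reporter) was sequenced in bulk, in samples labelled day 36. The 3 control libraries came from mice that kept at least 1 working Zfp750 allele (2 of them ZNF750 wt/fl and 1 ZNF750 wt/wt), and the 4 knockout libraries (Zfp750_KO) from ZNF750 fl/fl mice. All mice carried 1 copy of Lrig1-CreER or Lrig1-CreERT2, a Cre recombinase switched on by tamoxifen in cells that express Lrig1, a marker of hair follicle junctional zone stem cells. The Rosa26 locus was given as +/- in all controls and in 3 knockouts, and as -/- in 1 knockout. Control and knockout pups alike received 4-hydroxytamoxifen from day 4 to 7 or from day 5 to 8. The columns of the table give the group and a short name, by which the libraries are called here. Values of single libraries are given throughout in 1 order, for the controls 4F, 4M, 7F and for the knockouts 1M, 2M, 3F, 6F. The labels do not tie these names to a genotype line or say that each library is its own animal, and a p-value here measures only how libraries spread, which may be technical.

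Zfp750 is the mouse counterpart of ZNF750, a transcription factor that drives terminal differentiation of keratinocytes. When the epidermis is injured or inflamed, keratinocytes release antimicrobial proteins and alarmins, which bind metals and microbes, block proteases and call in leukocytes. They also raise proteins of the cornified envelope, gap junction channels and fatty acid carriers. Several of these genes are not confined to epithelium: neutrophils carry S100a8, S100a9 and Lcn2 in large amounts, and macrophages express Fabp5. For this reason each member was read beside Krt5, a keratin of basal keratinocytes, and Ptprc, the leukocyte antigen CD45.

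The RefSeq sequences upstream of the members are shown first, because several members were high in the same libraries and 1 of them carries a motif described for human ZNF750. RefSeq gave a promoter for 8 of the 9 members. Motifs were searched in the 250 bases before each annotated start, on build GRCm38.p6. Each line shows the longest stretch of that window free of GENCODE exons, 5′ to 3′ on the strand of the gene, for 5 members, with both annotated starts of Tgm1. Capitals mark matches to any of 5 motifs: CCNNNAGGC, described for ZNF750, TGANTCA for AP-1, TTNNGNAA for the C/EBP core, TTCNNNGAA for the STAT core, and TATAAA for the TATA box. The first 4 were searched on both strands and the TATA box on the strand of the gene, and matches to different motifs may overlap.
Slpi, chr2:164356508-164356757, minus strand: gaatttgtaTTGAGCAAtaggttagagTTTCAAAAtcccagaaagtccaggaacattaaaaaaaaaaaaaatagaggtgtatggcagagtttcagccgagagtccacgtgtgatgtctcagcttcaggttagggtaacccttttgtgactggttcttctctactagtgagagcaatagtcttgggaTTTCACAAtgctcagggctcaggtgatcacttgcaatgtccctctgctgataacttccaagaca
S100a8, chr3:90668821-90668977, plus strand: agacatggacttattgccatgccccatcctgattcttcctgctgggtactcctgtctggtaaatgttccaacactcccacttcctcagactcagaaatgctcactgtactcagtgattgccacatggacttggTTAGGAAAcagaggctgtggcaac
S100a9, chr3:90695722-90695971, minus strand: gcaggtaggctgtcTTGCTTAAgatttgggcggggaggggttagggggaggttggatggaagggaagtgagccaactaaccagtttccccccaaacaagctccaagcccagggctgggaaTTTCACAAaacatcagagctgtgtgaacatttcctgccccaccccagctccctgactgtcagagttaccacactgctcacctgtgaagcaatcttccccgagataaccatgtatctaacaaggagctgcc
Sprr1a, chr3:92485896-92486131, minus strand: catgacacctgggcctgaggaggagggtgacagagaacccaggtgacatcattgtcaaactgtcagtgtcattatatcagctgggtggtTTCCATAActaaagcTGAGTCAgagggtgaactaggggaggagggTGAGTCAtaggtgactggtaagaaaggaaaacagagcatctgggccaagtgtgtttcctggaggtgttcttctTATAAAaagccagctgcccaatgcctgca
Tgm1 upstream start, chr14:55713495-55713742, minus strand: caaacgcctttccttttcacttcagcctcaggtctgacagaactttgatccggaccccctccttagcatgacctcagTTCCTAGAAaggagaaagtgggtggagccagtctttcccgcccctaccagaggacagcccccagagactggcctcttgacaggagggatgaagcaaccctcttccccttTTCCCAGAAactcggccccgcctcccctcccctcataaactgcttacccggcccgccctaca
Tgm1 downstream start, chr14:55713090-55713287, minus strand: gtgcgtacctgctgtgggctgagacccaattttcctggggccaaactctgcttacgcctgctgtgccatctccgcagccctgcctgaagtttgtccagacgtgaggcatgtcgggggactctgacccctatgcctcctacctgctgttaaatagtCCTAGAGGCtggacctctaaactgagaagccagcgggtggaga
The match to the ZNF750 motif in the downstream of 2 Tgm1 starts, CCTAGAGGC, runs from 44 to 36 bases before that start, and none of the other 7 members had a match in this window. Of 32851 promoters of the same length, 19.8% held this motif. Sprr1a carried 2 copies of TGAGTCA, an AP-1 match found in 6.75% of promoters, and no other member had one. The C/EBP core was found in 6 of the 8 members and in 36.8% of all promoters. Upstream of the other Tgm1 start lay 2 matches to the STAT core, which 7.02% of promoters held and no other member did. The TATA box was found in S100a8, outside the stretch shown, and in Sprr1a, 2 of 8 members, and in 7.59% of promoters. These matches are letters in a sequence and were not measured as binding here.

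The libraries differed in make-up within both groups, and this touches every result below. The values give back totals of 9.09 to 17.06 M reads a library. As parts per M of a column total, Ptprc had 4.46 in control 4F and 39.2 to 40.1 in Zfp750_KO 1M and 2M. The other 4 libraries, here called CD45-rich, had 474 to 1247. Krt5 was at 1112, 909 and 361 per M in control 4F, Zfp750_KO 1M and 2M and at 67.5 to 158 in the other 4. So the 3 libraries poor in CD45 were the 3 richest in Krt5. Of 12 keratinocyte markers all were measured, with sums of 394 to 3499 per M in controls and 376 to 3134 in Zfp750_KO. The sum of 10 fibroblast markers was 87440 to 177500 and 17290 to 112400 per M in the same groups. In the fit with the macrophage score described further on, 7 of 8 muscle markers were called, 3 higher and 4 lower. Of all genes 1.67% were called higher and 2.46% lower there. The 4 lower were the skeletal muscle genes Acta1, Myh4, Ckm and Myog. The higher ones included the smooth muscle genes Acta2, by 1.59, and Myh11, by 1.34 (log2). Myog, a regulator of muscle differentiation, stood at 86.7, 113 and 102 in the controls and 0, 1.93, 7.89 and 16.5 in the knockouts. Only genes with at least 1 per M in 3 libraries were tested. Myog reached that level in every control but among the knockouts in 6F alone. It thus passed this filter through the controls, which limits its call. Of 10 T cell markers 2 were called higher in the fit with the score and 7 were higher at an unadjusted limma p under 0.05. Of all genes, 18% passed that p there in either direction. With the group as the only term, 1 T cell marker was higher at that p, against 5.83% of all genes in either direction. The part of these cells in the results was not tested. Zfp750 itself had normalized values of 335, 51.2 and 61.9 in the 3 controls and 48.9, 45.4, 10.1 and 29.6 in the 4 knockouts, lower in every knockout library than in any control. The gap was small, from 48.9 in Zfp750_KO 1M to 51.2 in control 4M. In limma Zfp750 differed by -1.47 ± 0.66 (log2, SE; adjusted p = 0.891) with the group alone. With the macrophage score it differed by -1.33 ± 0.32 (adjusted p = 0.058), so neither fit called it. Zfp750 lies within Tbcd, a gene read from the other strand, and without a stated strand setting reads of the overlap could belong to either. In bulk RNA fewer cells of a type and less RNA per cell cannot be told apart.

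**Figure D1:**
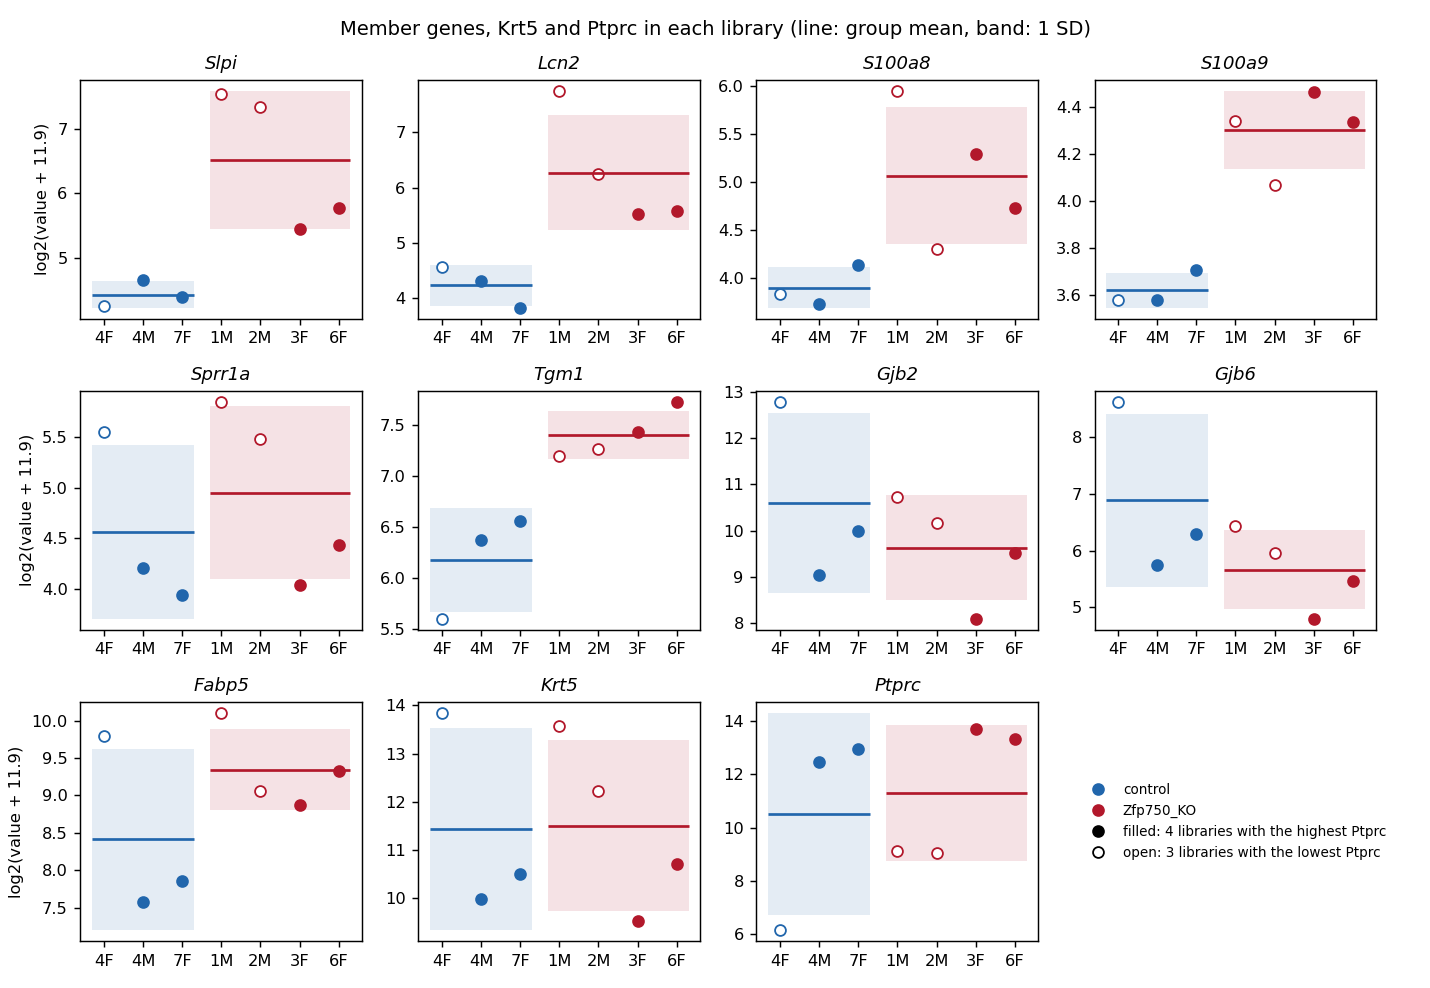
Level of each member, Krt5 and Ptprc by library, as log2(normalized value + 11.9) on the vertical axis (each panel has its own range), with group means as lines and 1 SD as bands. Slpi, Lcn2, S100a8, S100a9 and Tgm1 were higher in all 4 Zfp750_KO libraries than in all 3 controls, while the other 4 members overlapped.

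Slpi and Lcn2 were low in the 3 controls and higher in all 4 knockout libraries. Slpi, a secreted inhibitor of neutrophil elastase with antimicrobial activity, had normalized values of 6.97, 13.1 and 9.0 in the 3 controls. In the 4 knockouts it stood at 175, 152, 31.6 and 42.7. The lowest knockout was above the highest control, and the 2 knockout libraries poor in CD45 were far above the 2 rich in it. The reads behind these values were 8 to 10 in controls and 28 to 168 in Zfp750_KO. Lcn2, which withholds iron from bacteria by binding their siderophores, had values of 11.6, 7.88 and 2.25 in the 3 controls. Its values in the 4 knockouts were 204, 63.8, 33.8 and 35.8, and the groups did not overlap. As with Slpi, 1M and 2M were the highest.

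S100a8 and S100a9 form calprotectin, a metal-binding complex released by neutrophils and stressed keratinocytes. S100a8 had values of 2.32, 1.31 and 5.62 in the 3 controls, which are 1 to 5 reads per library. It reached 49.9, 7.73, 27.1 and 14.5 in the 4 knockouts. Pooled over libraries, 9 reads in controls stood against 101 in Zfp750_KO, a ratio of 7.62 per normalized unit with an exact 95% interval of 3.86 to 17.1 for counting error only. S100a9 was listed at 0 in control 4F and 4M and at 1.12 in 7F, and at 8.32, 4.83, 10.1 and 8.26 in the 4 knockouts. A count of 0 allows up to 3 reads, or values up to 2.32 in 4F and 3.94 in 4M. The pooled reads of S100a9 were 1 and 34, a ratio of 23.1 with an interval of 3.87 to 938. Both genes were higher in every knockout library than in any control. Their order within the knockouts differed from that of Slpi, since the CD45-rich 3F stood above the CD45-poor 2M for both.

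Markers of neutrophils were read beside S100a8 and S100a9. Of 16 such markers 10 were matched and 7 tested. With a term for macrophage content, 6 of the 7 markers were higher and 1 lower in the knockouts at an unadjusted limma p under 0.05. Of all genes, 18% passed that p in either direction, and the median difference of the 7 markers was 1.01 (log2). With the group as the only term, 1 marker was higher and 1 lower at that p, against 5.83% of all genes in either direction. In the fit with the macrophage term 1 was called after adjustment, Mmp8, a collagenase of neutrophil granules. Mmp8 stood at 0, 2.63 and 9.0 in the controls and at 60.3, 46.4, 115 and 52.3 in the knockouts, and it passed the filter on low values (1 per M in 3 libraries) through knockout libraries alone, so its call had to find a difference. Csf3r, the receptor for the growth factor G-CSF, had values of 1.55, 95.8 and 127 in the 3 controls and 20.8, 17.4, 755 and 368 in the 4 knockouts. Cxcr2, a chemokine receptor of neutrophils, was at 0, 10.5 and 12.4 in controls and at 26.0, 4.83, 73.3 and 57.2 in Zfp750_KO. Both were highest in the CD45-rich knockouts 3F and 6F. In that fit Csf3r differed by 0.79, Cxcr2 by 1.11, Trem1 by 1.01, Cd177 by 0.62 and the gelatinase Mmp9 by 2.88 (log2), none of them past the adjusted threshold. The tested marker that was lower was Il1r2, a decoy receptor, at 2168, 645 and 691 against 456, 126, 466 and 240. The summed level of the 10 markers overlapped, at 78.4 to 166 per M in controls and 106 to 264 in Zfp750_KO. That sum was led by Il1r2 in control 4F and by Mmp9, at 2940, in Zfp750_KO 1M. The granule genes Ltf and Ngp did not exceed 10.4 in any library. The part of neutrophils in the S100a8 and S100a9 levels was not tested.

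The cornified envelope genes did not move alike. Tgm1, the transglutaminase that cross-links envelope proteins, had values of 36.4, 70.9 and 82.1 in the 3 controls and of 134, 142, 160 and 200 in the 4 knockouts. Its groups did not overlap, and unlike Slpi and Lcn2 it was highest in the CD45-rich 6F and 3F. Sprr1a, a small proline-rich precursor of the envelope, had values of 34.8, 6.56 and 3.37 in the 3 controls and of 45.7, 32.8, 4.51 and 9.64 in the 4 knockouts. It was high in the 3 libraries rich in Krt5, whichever their group, and low in the 4 others.

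Gjb2 and Gjb6 encode connexin 26 and connexin 30, subunits of gap junction channels of the epidermis and hair follicle. Gjb2 had values of 7022, 513 and 1001 in the 3 controls and of 1681, 1133, 261 and 722 in the 4 knockouts. Gjb6 stood at 384, 42.0 and 66.4 in the 3 controls and at 74.9, 50.2, 15.8 and 32.4 in the 4 knockouts. Both were highest in control 4F and lowest in Zfp750_KO 3F, the libraries with the most and the least Krt5, and their groups overlapped. Fabp5, a fatty acid carrier of the epidermis, had values of 880, 178 and 221 in the 3 controls and of 1089, 524, 457 and 627 in the 4 knockouts. The 4 knockouts all exceeded control 4M and 7F, but control 4F lay among them. The reads behind the Fabp5 values were not whole numbers in several libraries, for instance 135.89 in control 4M and 196.21 in 7F. Part of them may be shared with other genes, which was not tested.

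In all, 5 of the 9 members were higher in every Zfp750_KO library than in any control, and none was lower. Of the 18141 genes tested, 3.19% were higher without overlap and 3.91% lower. S100a9 is not among those tested, because it did not reach 1 per M of the column total in 3 libraries. Lcn2 and S100a8 reached that level in Zfp750_KO libraries alone, so their passing the filter already required a difference. Slpi reached it in all 4 knockouts but in only 1 control, 4M at 1.10 per M, so it too passed the filter through the knockouts.

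**Figure D2:**
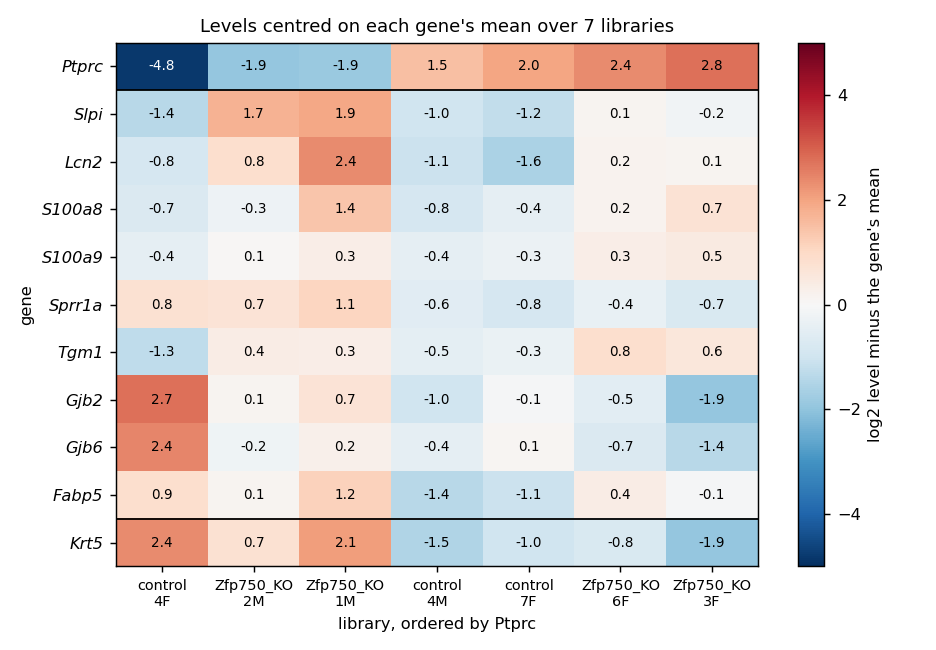
Level of Ptprc, the 9 members and Krt5 as log2(normalized value + 11.9) minus the mean of the gene over the 7 libraries, which run from the lowest Ptprc on the left to the highest on the right. Gjb2 and Sprr1a were highest in the 3 libraries with the most Krt5, and none of the members followed the order of Ptprc.

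The comparison of Zfp750_KO with control was fitted with limma over 18141 genes on log2(value + 11.9), a scale that understates changes of low genes. With the group as the only term no member passed an adjusted p of 0.05, and 0% of all genes did in either direction, while 5.83% of genes and 4 of the 8 tested members had an unadjusted p under 0.05. Slpi differed by 2.10 ± 0.56 (log2, SE), Lcn2 by 2.04 ± 0.56, Tgm1 by 1.23 ± 0.30 and S100a8 by 1.17 ± 0.40, with limma adjusted p-values of 0.454, 0.479, 0.376 and 0.684. Two-sided exact permutation over the 35 splits of 7 libraries gave p = 0.0571 for each of these and for S100a9, the smallest p that this design allows. Fabp5 differed by 0.93 ± 0.57, Sprr1a by 0.39 ± 0.57, Gjb2 by -0.97 ± 0.96 and Gjb6 by -1.23 ± 0.72, all with a limma adjusted p of 1.0. The median over the 8 tested members was 1.05, against 0.025 over all genes tested. Slpi, Lcn2 and S100a8 entered these 8 through knockout libraries, and the members were chosen with earlier results of these data known. So neither this median nor the count of 4 above can serve as a test of the members as a set. Gjb2 stood at 0.11 without control 4F, so the sign of its difference came from that library.

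A term for leukocyte content was then added, the average log2 value over 21 genes of macrophages and monocytes, which ran from 5.91 in control 4F to 10.8 in Zfp750_KO 3F. In this limma fit Slpi rose by 2.19 ± 0.41 (log2, SE; adjusted p = 0.0202), Lcn2 by 2.14 ± 0.39 (0.0195) and Tgm1 by 1.18 ± 0.20 (0.0151). Of all genes tested, 1.67% were called higher and 2.46% lower. Slpi and Lcn2 had passed the filter on low values through knockout libraries, as stated above, which limits their calls. The other members did not pass: S100a8 was at 1.16 ± 0.38 (adjusted p = 0.139), Fabp5 at 1.03 ± 0.35 (0.156), Sprr1a at 0.52 ± 0.23 (0.27), Gjb6 at -1.07 ± 0.35 (0.142) and Gjb2 at -0.76 ± 0.42 (0.4). Unadjusted, 7 of the 8 had p under 0.05, as had 18% of all genes. The limit given above for the 8 as a set holds for this count too. S100a9, fitted only without the filter on low values, was at 0.67 with an adjusted p of 0.0643.

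These 3 calls depended on the libraries kept, and so did the size of the differences of Slpi and Lcn2. All 3 calls were lost without control 4M, with limma adjusted p-values of 0.054 for Slpi, 0.0644 for Lcn2 and 0.0797 for Tgm1, and without control 7F, with 0.0725, 0.096 and 0.0561. Without 4M the differences stood at 2.49, 2.36 and 1.18, and without 7F at 2.35, 2.09 and 1.28. The lowest differences without 1 library were 1.55 for Slpi and 1.03 for Tgm1, both without control 4F. For Lcn2 the lowest was 1.71, without Zfp750_KO 1M, and in these fits the calls were kept. Calls over all genes fell too, from 303 higher and 446 lower to 71 and 111 without 4M and to 100 and 120 without 7F. Slpi was also lost without Zfp750_KO 1M (0.0511) and 2M (0.0645), and Tgm1 without 2M (0.056). With a pseudocount of 5 per M Slpi stood at 1.13 and Lcn2 at 1.01, the latter past the threshold no longer (adjusted p = 0.0712). Over all alternatives the adjusted p ran from 0.00373 to 0.214 for Slpi, from 0.00998 to 0.152 for Lcn2 and from 0.00837 to 0.113 for Tgm1. With Ptprc in place of the score Slpi no longer passed (0.0529), with Krt5 in its place neither Slpi (0.0888) nor Lcn2 (0.056) did, and with both as terms none of the 3 did (0.214, 0.152 and 0.113). Slpi differed by 2.22, 2.09 and 2.04 in these 3 fits, Lcn2 by 2.18, 2.02 and 1.86 and Tgm1 by 1.14, 1.24 and 1.08. Fabp5 passed without control 4F (1.51, adjusted p = 0.00489) and without Zfp750_KO 2M (1.45, 0.0237).

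**Figure D3:**
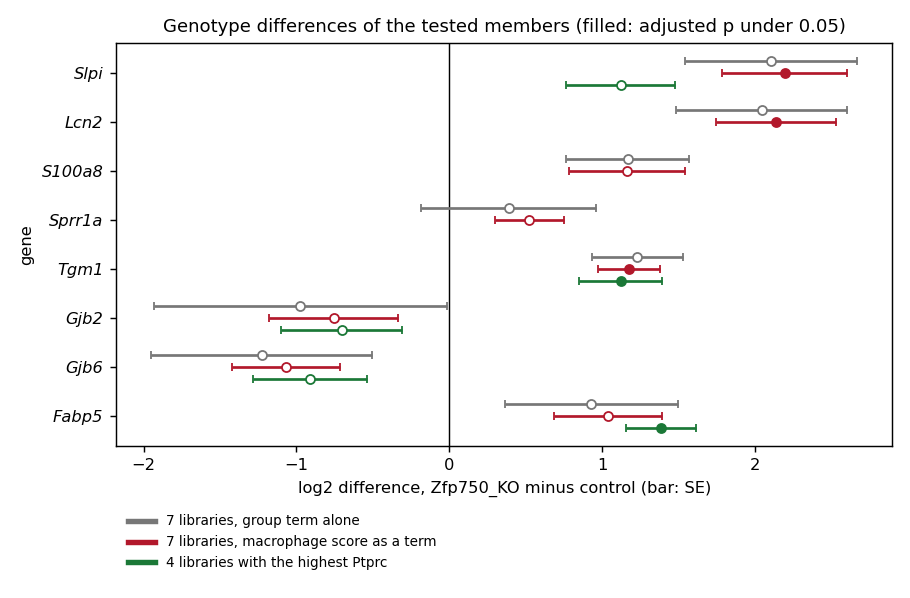
Log2 difference of the 8 tested members, Zfp750_KO minus control, with SE as bars, in the limma fit with the group alone (grey), with the macrophage score (red) and in the 4 libraries with the highest Ptprc (green). Filled points have an adjusted p under 0.05: Slpi, Lcn2 and Tgm1 with the score, and Tgm1 and Fabp5 in the 4 libraries.

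Within the CD45-rich and the CD45-poor libraries the members kept apart in different ways, and in both sets Ptprc itself was higher in the knockouts. In the 4 CD45-rich libraries, 2 of each group and chosen after seeing the data, Fabp5 had means of 200 in controls and 542 in Zfp750_KO, and rose by 1.38 ± 0.23 (log2, SE; limma adjusted p = 0.00269). Tgm1 had means of 76.5 and 180 and rose by 1.12 ± 0.27 (adjusted p = 0.019). Slpi differed by 1.12 ± 0.36 (0.0621), Gjb6 by -0.91 ± 0.37 (0.148) and Gjb2 by -0.70 ± 0.40 (0.3), and Lcn2, S100a8, S100a9 and Sprr1a were below the filter there. In that fit 5.12% of genes were called higher and 7.01% lower. Slpi, Lcn2, S100a8, S100a9, Tgm1 and Fabp5 were higher in both knockouts than in both controls, as were 29.4% of genes, and Gjb6 was lower, as were 25.2%. Krt5 had means of 1214 and 1189 in these libraries and overlapped, whereas Ptprc had means of 6752 and 11840, so leukocyte RNA was itself higher in the knockouts. Its part in these differences was not tested.

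Among the 3 CD45-poor libraries there was 1 control, and no test was made. Slpi was at 6.97 in control 4F and had a mean of 163 in Zfp750_KO 1M and 2M, a ratio of 23.4, against 3.36 in the CD45-rich libraries. The ratio for Lcn2 was 11.5 against 6.88, and for Tgm1 3.79 against 2.35. Fabp5 went the other way, with a ratio of 0.916 against 2.72. Gjb2 was at 0.2 times and Gjb6 at 0.163 times control 4F in the mean of 1M and 2M, where Krt5 was at 0.577 times and Ptprc at 8.96 times. The difference of these ratios between the sets of libraries was not tested.

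Set against Krt5, the connexins were lower in knockouts and Slpi and Lcn2 higher. Gjb2 stood at 47.8%, 51.5% and 70.0% of Krt5 in the 3 controls and at 13.8%, 23.8%, 36.0% and 43.7% in the 4 knockouts. Gjb6 stood at 2.62%, 4.22% and 4.64% in controls and at 0.615%, 1.06%, 2.17% and 1.96% in Zfp750_KO. Neither ratio overlapped between the groups. Slpi was at 0.0474%, 1.32% and 0.629% of Krt5 in the 3 controls and at 1.43%, 3.19%, 4.34% and 2.58% in the 4 knockouts. Lcn2 ranged from 0.0791% to 0.79% in controls and from 1.34% to 4.65% in knockouts, again without overlap. Of all genes tested, 0.386% had a plain ratio to Krt5 that was higher without overlap and 0.198% one that was lower.

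With the pseudocount of 11.9 only Gjb2 stayed apart, by -1.04 on the log2 scale (two-sided exact permutation p = 0.0571, the smallest possible). On that scale 0.198% of genes were higher and 0.0661% lower without overlap. Gjb6 differed by -1.29, Slpi by 2.04 and Lcn2 by 1.97, with exact permutation p-values of 0.114, 0.114 and 0.171 and overlapping groups. Relative to the mean of the 12 keratinocyte markers in place of Krt5, Slpi and Lcn2 were higher and Gjb2 and Gjb6 lower without overlap. The share of all genes apart on that measure was not computed, so this count has nothing to be set against. Slpi and Lcn2 had also passed the filter on low values through knockout libraries. Tgm1 and Fabp5 overlapped in every version with all 7 libraries. Tgm1 stood at 0.248% of Krt5 in control 4F and at 1.1% in Zfp750_KO 1M, against 5.74% to 22.0% in the 4 CD45-rich libraries.

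Set against Ptprc no member separated the groups, with or without a pseudocount. Of all genes, 0.011% were higher and 0.209% lower without overlap with the pseudocount, and 0.386% and 0.601% without it. Every tested member stood far higher relative to Ptprc in the 3 CD45-poor libraries than in the other 4, as Ptprc itself varied 228-fold. Slpi, for instance, was at 11.8%, 32.5% and 29.3% of Ptprc in control 4F and Zfp750_KO 1M and 2M and at 0.115% to 0.417% in the rest. No tested member had its highest level in the library with the most Ptprc, Zfp750_KO 3F. S100a9, which was not tested, had its highest value there. The 3 libraries with the most Krt5 were also the 3 with the most Sprr1a and the 3 with the most Gjb2.

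**Figure D4:**
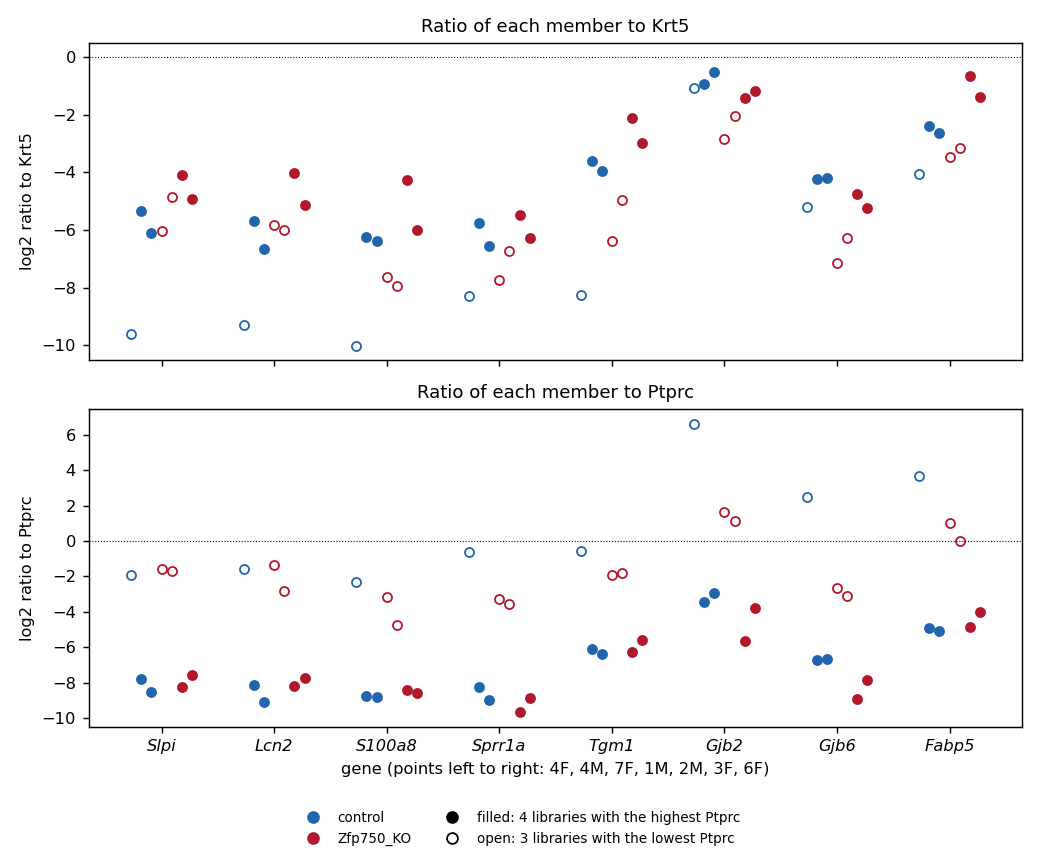
Log2 ratio of each tested member to Krt5 (top) and to Ptprc (bottom) in each library, with 11.9 added to both values. Relative to Krt5, Gjb2 lay lower in each of the 4 knockouts than in any control, and relative to Ptprc the open points of the 3 CD45-poor libraries lay above the filled ones for every tested member.

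The genes with the most similar profiles differed between members. Likeness was the mean absolute distance, on the log2 scale, between profiles over the 7 libraries centred on their own means. It was sought among 11301 tested genes, those averaging 5 per M or more without a predicted Gm or Rik symbol. Nearest to Slpi were Rgs16 (0.15), Uck2 (0.18) and Timp1 (0.22), and nearest to Lcn2 were Uck2 (0.29), S1pr3 (0.34) and Sv2c (0.35). For S100a8 they were Hgf (0.24), Itga1 (0.27) and Fkbp5 (0.29). Those of Sprr1a were Kctd1 (0.050), Arhgef26 (0.096) and Stard10 (0.12), and those of Tgm1 included Tmem86a (0.12) and B4galnt1 (0.17). Gjb2 lay nearest to Mpzl2 (0.19), Tfap2b (0.22) and Tenm2 (0.27). Gjb6 lay nearest to Zfp750 itself (0.16), then Gpm6a (0.26) and Sema3e (0.27). Fabp5 had the cadherin Cdh1 (0.22), Cd200 (0.23) and the integrin Itga6 (0.24) as its nearest profiles. The members themselves spanned 1.91 to 4.69 on this scale.

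Other genes of the same pathways were counted in the limma fit with the macrophage score, in which 1.67% of all genes were called higher and 2.46% lower, and 18% had an unadjusted p under 0.05. Of 21 tested alarmins and antimicrobial proteins 2 rose and 1 fell. Saa3, an acute phase protein of tissues, rose by 1.90 ± 0.41 (log2, SE; adjusted p = 0.0374) and was at 13.1 to 71.7 in Zfp750_KO against 0 to 10.1 in controls, but like Mmp8 it passed the filter through knockout libraries alone. Chil3, a chitinase-like protein of myeloid cells, rose by 1.87 ± 0.43 (0.0453), and Lyz1, a lysozyme, fell by 2.50 ± 0.27 (0.00308), both with overlapping groups. Among the controls Chil3 reached 1 per M in 7F alone, so like Slpi it passed the filter through the knockouts. Saa3 lost its call without each of control 4M, 7F, Zfp750_KO 1M, 2M and 3F (adjusted p up to 0.168), and Chil3 without each of control 4M, 7F, Zfp750_KO 1M, 3F and 6F (up to 0.206). Chil3 was at 0.97 and Saa3 at 0.75 with a pseudocount of 5 per M. Lyz1 kept its call without any 1 library but not with Krt5 in place of the score (-1.90, adjusted p = 0.207). Its reads can be shared with the near-identical Lyz2, and those of Saa3 with other Saa genes, so both are uncertain.

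Among 14 tested envelope and stress keratin genes 1 rose and 1 fell. Prdm1, a transcriptional repressor active in keratinocytes and in lymphocytes and macrophages, rose by 2.72 ± 0.41 (log2, SE; limma adjusted p = 0.00894), and Ppl, an envelope plakin, fell by 0.89 ± 0.21 (0.0481). Prdm1 kept its call without any 1 library and lost it with Krt5 in place of the score (adjusted p = 0.056) and with Ptprc and Krt5 (0.123). Ppl kept the call only without Zfp750_KO 1M, with adjusted p-values up to 0.162 without any other 1 library. None of 9 other connexin and pannexin genes passed, and 2 had an unadjusted p under 0.05, near the 18% of all genes that did. Gja1, the connexin 43 gene, was at 39498, 5468 and 7591 in the 3 controls and at 24292, 22024, 3035 and 4234 in the 4 knockouts. Panx1 ranged from 204 to 378 over the 7 libraries.

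Of 11 fatty acid binding and sensing genes 1 rose, Crabp1, a retinoic acid binding protein, by 3.24 ± 0.70 (log2, SE; limma adjusted p = 0.036). It stood at 153, 13.1 and 20.2 in the controls and at 4338, 1937, 22.5 and 43.4 in the knockouts, and was at 2.13 without control 4F. Crabp1 lost its call without each of control 4M, 7F, Zfp750_KO 1M, 2M and 6F (adjusted p up to 0.113). None of 11 receptors and targets of the member proteins passed, and 4 had an unadjusted p under 0.05, against 18% of all genes. Anxa2 and Grn had the highest means of them, and Anxa2, annexin A2, ranged from 4729 to 6196 over the 7 libraries, while Grn, progranulin, a growth factor precursor that SLPI guards from cleavage, ranged from 2714 to 4858. Of 31 upstream cytokines, receptors and transcription factors 2 rose. Osm, the cytokine oncostatin M, rose by 2.18 ± 0.20 (0.00306) and kept its call without any 1 library but not with Krt5 in place of the score (2.56, adjusted p = 0.0669), and Il1b rose by 0.79 ± 0.18 (0.0441). Il1b lost its call without each of control 4M, 7F, Zfp750_KO 1M, 2M and 3F (adjusted p up to 0.185). Both are expressed by leukocytes and overlapped between the groups. With Krt5 or with Ptprc in place of the score, Saa3, Chil3, Crabp1 and Il1b did not pass, and Ppl passed with Krt5 alone. With the group term alone none of these genes passed. Il17a, a cytokine that induces Lcn2 and S100a8, was at 0, 7.88 and 24.7 in controls and 5.20, 11.6, 87.9 and 12.4 in Zfp750_KO.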

How the data were processed

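Bulk RNA-seq libraries of tdTomato-sorted skin cells were made with a NEBNext Ultra II kit, per the labels' protocols, 3 control and 4 Zfp750_KO. Tools were TopHat2 2.1.0 and Partek 9.0.20.0202, per the submitters' processing notes. Build, strand setting and counting method were not given in the sources used here. What the authors deposited is 1 table of normalized counts, a signal in unit: low values were whole multiples of 1 step per library for 78.0% to 79.6% of values under 200 reads (tolerance 0.02 reads), so no count test was run. Each listed gene had at least 10 reads over the 7 libraries. Dividing by that step gave the reads printed here. Columns name a group but no single sample.

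Values were analysed as log2(value + 11.9), 1 per M of the median column total, in 18141 genes with at least 1 per M in 3 libraries, using limma 3.58.1 in R 4.3.3 (lmFit, eBayes with trend, Benjamini-Hochberg at 0.05). The residual degrees of freedom were 5 with the group alone and 4 with the score. Exact permutation p-values are two-sided, and intervals cover counting error only. The procedures were tested on simulated data. Members, Krt5 and Ptprc are always named. From each pathway list up to 4 genes past the threshold are named, or the 2 with the highest mean, and 3 nearest profiles per member, of which 1 is not reported here. Csf3r, Cxcr2, Trem1, Cd177, Mmp9, Il1r2, Ltf, Ngp, Il17a, Acta2 and Myh11 were named after their values were seen, and most other marker list genes are not named. The members and lists were chosen with earlier results of these data known.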

Additional observations from a re-analysis of the deposited data

How the results depend on the processing

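No paired analysis was possible because the columns carry no replicate numbers of the sample titles. Lcn2, S100a8, Slpi and Sprr1a gave no value with the filter of 5 per M, and S100a8 and Sprr1a none in 3 of the 7 fits without 1 library. With the group alone, 5 members passed with array weights, where 10.4% of all genes were called higher, 2 in the 4 CD45-rich libraries (added after seeing the data) and 0 without any 1 library. With the score the count of 3 became 1 with the filter of 5 per M, 1 with Krt5 and 0 with Ptprc and Krt5 as terms, and 0 to 4 without 1 library. Members apart from controls relative to Krt5 were 1, or 4 with the keratinocyte marker mean or without a pseudocount. Without 1 library they were 1 to 3. Relative to Ptprc they were 0, and 0 to 2 without 1 library. The share over all genes was not computed for the marker mean or for the ratios without 1 library.

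Signs turned as follows, and the cause was not tested. With array weights Gjb2 was at 0.35 and Il1b at -2.12 with the group alone, and Il1b was at -0.51 in the lowest and 2.26 in the highest fit without 1 library, and Gjb2 at -1.76 and 0.11. Without 1 library, the log2 ratios to Krt5 ran from -0.14 to 1.74 for S100a8, -0.39 to 0.87 for Sprr1a and -0.33 to 1.99 for Tgm1. Those to Ptprc ran from -0.71 to 2.54 for S100a8, -1.92 to 2.29 for Sprr1a, -3.51 to 1.52 for Gjb2, -3.55 to 1.05 for Gjb6, -0.57 to 2.35 for Tgm1, -1.34 to 3.03 for Fabp5 and -0.15 to 3.61 for Lcn2. With a pseudocount of 5 per M S100a8 to Ptprc was at -0.18. Depth limits S100a8 and S100a9 most, with 0 to 5 reads per control library.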

Other observations

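A pair of listed genes of stressed keratinocytes, chosen after their values were seen, fell below or near the limits of the tests. Il36g, an epithelial cytokine of the IL-1 family, was listed at 0 in control 4F and 4M and at 3.37 in 7F, and at 28.1, 7.73, 22.5 and 6.89 in the knockouts. It did not pass the filter on low values and was not tested. Krt6a, a keratin of wounded and hyperproliferative epidermis, was at 575, 112 and 118 in the controls and at 2496, 783, 133 and 313 in the knockouts. Its limma adjusted p with the macrophage score was 0.0666, and the groups overlapped through control 4F.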
